A study of Homo sapiens with 3 samples.

Results

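HLA class I antigen presentation was described in untreated H9 cells through 9 genes: the heavy chain genes HLA-B, HLA-C, HLA-E, HLA-F and HLA-G, the light chain gene B2M, the peptide transporter genes TAP1 and TAP2, and the transactivator gene NLRC5. They were listed by name and not by a rule on their values, although earlier results of these data were known. Ensembl identifiers of the deposited counts were matched to GENCODE symbols on the primary chromosomes. All 9 were found among 58051 genes with counts, 19629 of them protein-coding. H9 is a widely used line of human embryonic stem cells. The 3 replicates carried the wild-type genotype and no treatment, and were grown on Vitronectin-XF in Essential 8 Flex medium. Their total RNA was depleted of ribosomal RNA and sequenced as 1 library each. The labels do not say whether the replicates were separate cultures, so the spread between them may be technical, and with a single condition no test between groups was made.

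Class I molecules sit on the surface of nearly all nucleated cells and show peptides from the cell's own proteins to cytotoxic T cells and natural killer cells. Each molecule is a heavy chain bound to the invariant light chain beta-2 microglobulin and to a peptide that the proteasome has cut, that the TAP1 and TAP2 transporter has carried into the endoplasmic reticulum, and that a loading complex of chaperones has fitted into the groove. Transcription of these genes is raised by interferon gamma through interferon regulatory factors (IRFs), by NF-kappaB, and by NLRC5, which binds no DNA itself and is held at the promoters by the RFX, CREB/ATF and NF-Y factors. Human embryonic stem cells are known for low class I surface levels that rise on interferon treatment.

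The promoters of 4 heavy chain genes and of B2M are shown because they hold the letters that these factors are known to read, and because they belong to genes whose levels ranged from low to high in the same cells. They are RefSeq windows on GRCh38.p14 that run from 250 bases before to 50 bases after the transcription start, each starting from the start of the gene's MANE Select transcript, the reference transcript that RefSeq and Ensembl share. Of the 9 genes, 7 had a window in the RefSeq table used here, and HLA-E and NLRC5 had none. Sequences are written 5′ to 3′ on the strand of the gene, and capitals mark 4 motifs searched on both strands: AANNGAAA as the core of an IRF site, GGGGATTC as a kappaB site, CCAAT for NF-Y (ATTGG on the other strand) and TGACG as a CRE half-site for CREB/ATF factors. HLA-C lay at chr6:31272043-31272342 and HLA-B at chr6:31357130-31357429, both on the minus strand. HLA-F lay at chr6:29723184-29723483, HLA-G at chr6:29827575-29827874 and B2M at chr15:44711267-44711566, all on the plus strand.
HLA-C: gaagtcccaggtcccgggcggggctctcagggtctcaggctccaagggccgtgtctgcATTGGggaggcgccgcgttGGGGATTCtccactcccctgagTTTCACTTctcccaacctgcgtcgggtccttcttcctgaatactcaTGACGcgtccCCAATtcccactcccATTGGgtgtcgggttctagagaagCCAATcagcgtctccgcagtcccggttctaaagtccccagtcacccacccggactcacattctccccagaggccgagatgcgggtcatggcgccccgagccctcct
HLA-B: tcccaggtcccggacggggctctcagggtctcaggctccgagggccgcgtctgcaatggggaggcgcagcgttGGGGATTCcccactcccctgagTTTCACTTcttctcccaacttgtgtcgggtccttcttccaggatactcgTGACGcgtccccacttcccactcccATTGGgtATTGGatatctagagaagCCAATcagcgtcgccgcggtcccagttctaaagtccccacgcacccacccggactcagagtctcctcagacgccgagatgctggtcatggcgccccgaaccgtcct
HLA-F: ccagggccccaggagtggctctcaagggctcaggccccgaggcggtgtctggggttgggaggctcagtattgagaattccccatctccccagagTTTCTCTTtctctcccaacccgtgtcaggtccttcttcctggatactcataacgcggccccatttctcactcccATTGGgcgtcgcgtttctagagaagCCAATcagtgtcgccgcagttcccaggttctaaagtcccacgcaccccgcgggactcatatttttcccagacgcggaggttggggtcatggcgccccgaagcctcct
HLA-G: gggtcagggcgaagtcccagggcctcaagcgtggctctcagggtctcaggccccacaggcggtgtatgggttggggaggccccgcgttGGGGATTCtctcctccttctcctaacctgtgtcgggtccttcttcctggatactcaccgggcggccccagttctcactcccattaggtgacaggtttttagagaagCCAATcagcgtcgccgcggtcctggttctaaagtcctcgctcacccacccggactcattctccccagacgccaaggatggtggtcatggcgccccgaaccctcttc
B2M: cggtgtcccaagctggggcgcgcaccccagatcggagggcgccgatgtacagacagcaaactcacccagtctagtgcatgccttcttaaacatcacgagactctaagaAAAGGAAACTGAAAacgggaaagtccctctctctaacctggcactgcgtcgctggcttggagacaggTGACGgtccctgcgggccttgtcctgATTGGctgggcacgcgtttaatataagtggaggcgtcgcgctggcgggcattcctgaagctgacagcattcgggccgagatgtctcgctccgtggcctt

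The HLA-C and HLA-B windows shared a common layout, and those of HLA-F and HLA-G held only part of it. HLA-C and HLA-B were identical at 88.5% of aligned positions, and each held, from upstream to downstream, the kappaB letters, an IRF match, a CRE half-site and CCAAT letters (HLA-C also had CCAAT letters further upstream, at −192). In HLA-C these lay at positions −173, −151, −105 and, for the CCAAT match nearest the start, −56, and in HLA-B at −177, −155, −106 and −56, where a position is that of a match's first base counted from the start. All 4 motifs together were found in 6 of 35116 RefSeq windows (0.0171%), HLA-B and HLA-C among them. HLA-F, 78.5% identical to HLA-C, held the IRF match at −156 and CCAAT letters at −82 and −57 but neither the kappaB letters nor the CRE half-site. HLA-G, 79.0% identical to HLA-C, held the kappaB letters at −162 and CCAAT at −56 and no match to the other motifs. The B2M window, 46.7% to 48.9% identical to those of the heavy chains, held a pair of IRF matches at −142 and −136 that overlap, a CRE half-site at −75 and CCAAT letters at −49.

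The transporter genes had IRF matches too. The TAP1 window at chr6:32853655-32853954 held a pair that overlap at −134 and −128 and CCAAT letters at −249. The TAP2 window at chr6:32838690-32838989 held a pair that overlap at −62 and −56 and a CRE half-site at −35. Thus the IRF letters were in 6 of the 7 windows, against 22.8% of all RefSeq windows of the same length, the CCAAT letters in 6 against 34.6%, the CRE half-site in 4 against 24.6% and the kappaB letters in 3 against 0.889%. These counts are not a test of enrichment, because the motifs were chosen for factors known to act on these genes. The windows are also not independent: those of the 4 heavy chain genes were 73.4% to 88.5% identical. All windows with the kappaB letters were of heavy chain genes. A match is a run of letters and not a measured binding site. A missing match says only that these letters are not in the window.

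**Figure D1:**
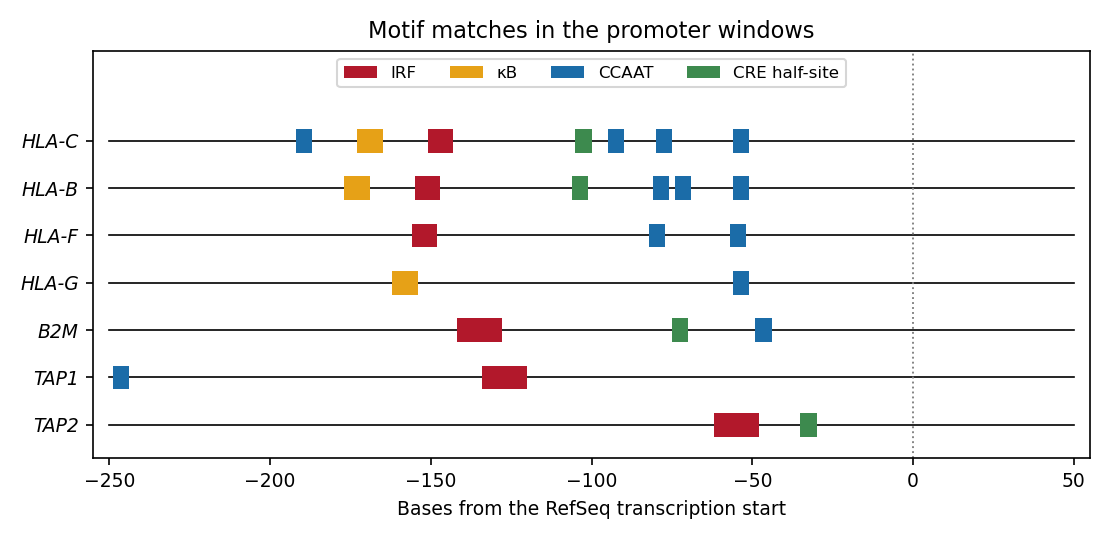
Position of each motif match in the promoter windows of 7 genes, in bases from the RefSeq transcription start (dotted line at 0), with a coloured block for each match. The kappaB, IRF and CRE half-site blocks fall in the same order in HLA-C and HLA-B, with a CCAAT block at −56 in both and a further one upstream of the kappaB block, at −192, in HLA-C alone of the pair, while TAP2 has its IRF matches within 62 bases of the start.

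The libraries held 10390984, 12024802 and 8655155 counts, and the 9 genes together took 1649, 1960 and 1530 of them. Markers matched the labelled cell type: all 9 pluripotency markers, POU5F1, NANOG, SOX2 and LIN28A among them, were in the high expression class described below, with summed levels of 7392 to 7575 TPM (reads per exon length at a fixed library sum, explained below). The 8 leukocyte markers summed to 3.30 to 4.55 TPM, the 5 endothelial markers to 1.23 to 2.25 TPM and the 8 trophoblast markers to 12.1 to 14.7 TPM, with no read on CD3D, MS4A1, CD14 or XAGE2. The 6 fibroblast markers summed to 42.1 to 48.4 TPM, most of it from COL1A1 and COL1A2.

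HLA-C was the most abundant of the 9 transcripts and HLA-E followed among the heavy chains, while HLA-B, HLA-G and HLA-F lay below HLA-E in mean level, by 5.48-fold or more with the lengths used here and by 2.09-fold or more with the length of the MANE Select transcript. Levels are TPM, that is, reads divided by the summed exon length of the gene and scaled to a fixed sum in each replicate, so they can be compared between genes. All means are given ± SD over the 3 replicates. A level in bulk RNA does not tell apart many cells with little of a transcript from few cells with much of it. Classes follow the definition in the study's methods: protein-coding genes below 0.01 TPM are nonexpressed, and the rest are divided into 3 quantiles, here low up to 3.35 TPM, medium up to 27.0 TPM and high above.

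HLA-C (ENSG00000204525, chromosome 6, 31268749 to 31272130, minus strand) encodes a classical heavy chain that is also the main class I ligand of the killer immunoglobulin-like receptors. It had 815, 980 and 812 reads, or 125, 129 and 146 TPM, a mean of 133 ± 11.1 TPM. Replicate 3 was the highest of the 3. HLA-C was in the high class, with 1120 protein-coding genes above it. It made up 73.9%, 74.5% and 75.8% of the summed level of the 5 heavy chain genes, which was 169, 173 and 193 TPM. The mean share was 74.7% ± 0.963.

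HLA-B (ENSG00000234745, chromosome 6, 31353872 to 31367067, minus strand), the other classical heavy chain of the set, had 60, 97 and 63 reads. These gave 4.99, 6.93 and 6.14 TPM, a mean of 6.02 ± 0.979 TPM in the medium class. Replicate 2 was the highest and replicate 1 the lowest, and no replicate came near the HLA-C range. The level of HLA-C was 25.1, 18.6 and 23.8 times that of HLA-B in replicates 1, 2 and 3 (22.5 ± 3.40). The promoter windows shown above for these genes are the closest pair of the set. They come from the reference genome, and the promoter alleles carried by H9 were not examined. The annotated exons of HLA-B add up to 4623 bases, of which the MANE Select transcript covers 1536. With MANE Select lengths for all genes, an alternative chosen after seeing the data, HLA-B stood at 11.2 ± 1.83 TPM, still medium and still below HLA-C at 134 ± 11.8 TPM, by 12.1 ± 1.83 times.

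The nonclassical heavy chains spanned a wide range. HLA-E (ENSG00000204592, chromosome 6, 30489509 to 30494194, plus strand), which presents leader peptides of other heavy chains to the natural killer receptor CD94/NKG2A, had 261, 263 and 226 reads. Its levels were 34.3, 29.7 and 34.9 TPM, a mean of 33.0 ± 2.81 TPM, with replicate 2 the lowest. HLA-E lay, by fold, the nearest of the 9 to a class boundary, in the high class by its mean but medium at 23.4 ± 2.05 TPM with MANE Select lengths.

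HLA-G (ENSG00000204632, chromosome 6, 29826967 to 29831125, plus strand), best known from the invasive trophoblast of the placenta, had 17, 36 and 17 reads. Its levels were 3.70, 6.75 and 4.34 TPM, a mean of 4.93 ± 1.60 TPM in the medium class. Replicate 2 stood 0.75 log2 units above the mean of the others. Of the 8 trophoblast markers, which summed to 12.1 to 14.7 TPM, KRT7 reached 6.70 ± 1.19 TPM, 6 were in the low class and XAGE2 had no read. KRT7 (5.67, 6.45 and 8.00 TPM), TFAP2A and ERVW-1 were highest in replicate 3. GCM1 (6, 2 and 1 reads), CGA (1, 0 and 0 reads) and ERVFRD-1 (9, 1 and 7 reads) were highest in replicate 1. ERVFRD-1 was lowest in replicate 2 (1.07, 0.102 and 0.975 TPM). TFAP2A had 6, 9 and 10 reads. On so few reads the order of the replicates is uncertain. Only GATA3 was highest in replicate 2, like HLA-G (1.47, 1.95 and 1.59 TPM from 13, 20 and 12 reads). The part of trophoblast-like cells in the HLA-G level was not tested.

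HLA-F (ENSG00000204642, chromosome 6, 29722775 to 29738528, plus strand), which can reach the cell surface without a peptide, was the lowest of the heavy chains. It had 13, 11 and 13 reads, or 1.16, 0.842 and 1.36 TPM, a mean of 1.12 ± 0.260 TPM in the low class. With MANE Select lengths its mean was 2.02 TPM, also low.

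B2M (ENSG00000166710, chromosome 15, 44711358 to 44718851, plus strand), the light chain of every class I molecule, had 357, 427 and 294 reads. Its levels were 43.9, 45.2 and 42.4 TPM, a mean of 43.9 ± 1.39 TPM in the high class. The range of the 3 replicates did not touch that of HLA-C above it or HLA-E below it. Each heavy chain pairs with a light chain, but RNA levels do not give the amounts of the proteins. The B2M level was 26.0%, 26.1% and 22.0% of the summed level of the 5 heavy chain genes, a ratio of 0.247 ± 0.0231. The ratio depended on the transcript length assigned to B2M, whose annotated exons add up to 3121 bases against 943 in its MANE Select transcript: with MANE Select lengths B2M stood at 89.8 ± 2.50 TPM and the ratio at 0.516. By summed exon lengths HLA-C exceeded B2M by 2.84, 2.86 and 3.44 times and HLA-E was at 0.781, 0.658 and 0.821 of the B2M level. By MANE Select lengths HLA-C exceeded B2M by 1.40, 1.40 and 1.69 times and HLA-E was at 0.271, 0.228 and 0.284 of it.

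TAP1 and TAP2 encode the subunits of the transporter that carries peptides into the endoplasmic reticulum. TAP1 (ENSG00000168394, chromosome 6, 32845209 to 32853816, minus strand) had 60, 73 and 52 reads, or 4.87, 5.09 and 4.95 TPM, a mean of 4.97 ± 0.115 TPM in the medium class. TAP2 (ENSG00000204267, chromosome 6, 32821833 to 32838739, minus strand) had 54, 67 and 46 reads, or 2.00, 2.14 and 2.00 TPM, a mean of 2.05 ± 0.0784 TPM in the low class. The replicates of each gene lay close together and the groups did not overlap. The level of TAP1 was 2.43, 2.38 and 2.47 times that of TAP2, a ratio of 2.43 ± 0.0447. This ratio was among the steadiest of those measured, but counting error alone would give spreads of 12.7% for TAP1 and 13.4% for TAP2. Its SD therefore overstates the precision.

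NLRC5 (ENSG00000140853, chromosome 16, 56989485 to 57083531, plus strand), the class I transactivator, had the lowest level of the set. Its 12, 6 and 7 reads over 12386 exon bases gave 0.372, 0.160 and 0.255 TPM, a mean of 0.262 ± 0.106 TPM. It was in the low class, with 15139 protein-coding genes above it. Replicate 1 was the highest and replicate 2 the lowest, a spread of 40.5% of the mean where counting error alone would give 34.6%.

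**Figure D2:**
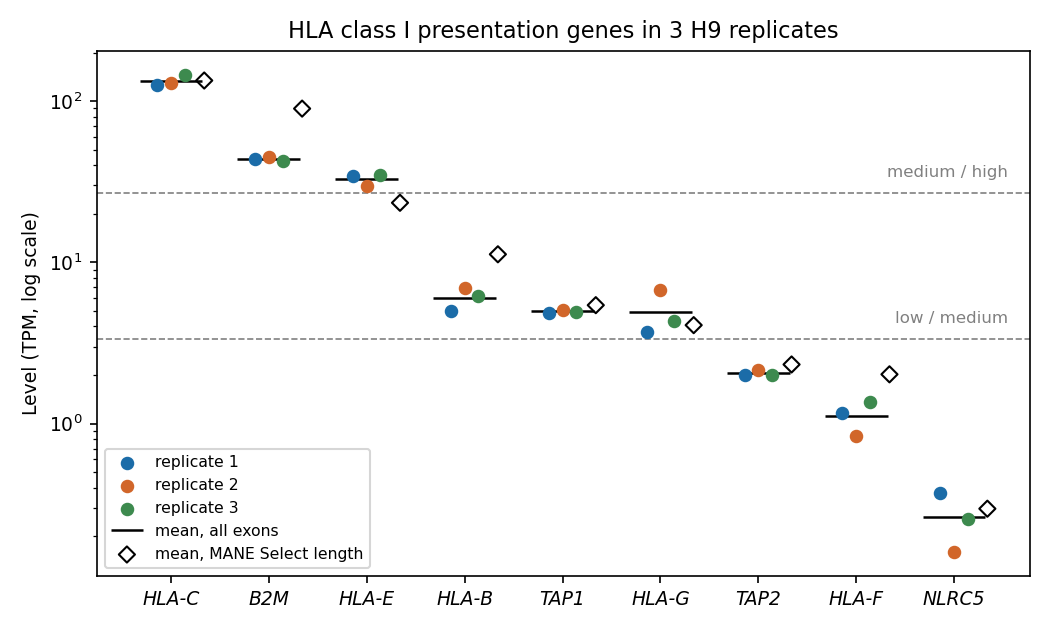
Level of each of the 9 genes in TPM on a log axis, with a point for each of the 3 replicates, a black bar for their mean and an open diamond for the mean with MANE Select transcript lengths; dashed lines mark the class boundaries for all-exon lengths at 3.35 and 27.0 TPM. HLA-C, B2M and HLA-E sit above the upper boundary and TAP2, HLA-F and NLRC5 below the lower, and the diamond of B2M stands at 89.8 TPM against a mean of 43.9 TPM.

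Ordered by mean level, the genes ran HLA-C, B2M, HLA-E, HLA-B, TAP1, HLA-G, TAP2, HLA-F and NLRC5. Neighbours were called apart only where the ranges of the 3 replicates did not overlap, since an exact paired permutation test over 3 replicates cannot give a two-sided p below 0.25. By this rule 6 of the 8 neighbouring pairs were apart. HLA-C exceeded B2M 3.04-fold, B2M exceeded HLA-E 1.33-fold and HLA-E exceeded HLA-B 5.48-fold, the widest step with summed exon lengths. HLA-B, TAP1 and HLA-G had ranges that overlapped each other, although within each of the 3 replicates HLA-B was above TAP1, and the means of TAP1 and HLA-G differed 1.01-fold. Below them HLA-G exceeded TAP2 2.41-fold, TAP2 exceeded HLA-F 1.83-fold and HLA-F exceeded NLRC5 4.27-fold. With the longest transcript, exon bases shared with no other gene or the MANE Select transcript as length, HLA-E exceeded HLA-B 4.82-fold, 2.89-fold and 2.09-fold. HLA-F then exceeded NLRC5 6.57-fold, 5.93-fold and 6.81-fold, so that the step from HLA-F to NLRC5 was the wider. With the longest transcript TAP1 also stood above HLA-B in mean level, at 6.34 against 5.905 TPM, so HLA-E and HLA-B were then not neighbours.

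Against all protein-coding genes the 9 were spread from percentile 22.9 to percentile 94.3. High, medium and low classes each held 3 of them and none was nonexpressed. The high share of 33.3% compares with 28.8% of the 19629 protein-coding genes, and the median of their means, 4.97 TPM, with a median of 7.10 TPM over all protein-coding genes. In 7 of the 9 (77.8%) the level was above 1 TPM in every replicate, against 65.1% of protein-coding genes. In percentiles of protein-coding genes, HLA-C stood at 94.3, B2M at 80.4 and HLA-E at 74.95, and HLA-B, TAP1 and HLA-G fell together at 48.0, 46.0 and 45.9. TAP2 stood at 38.1, HLA-F at 33.6 and NLRC5 at 22.9.

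**Figure D3:**
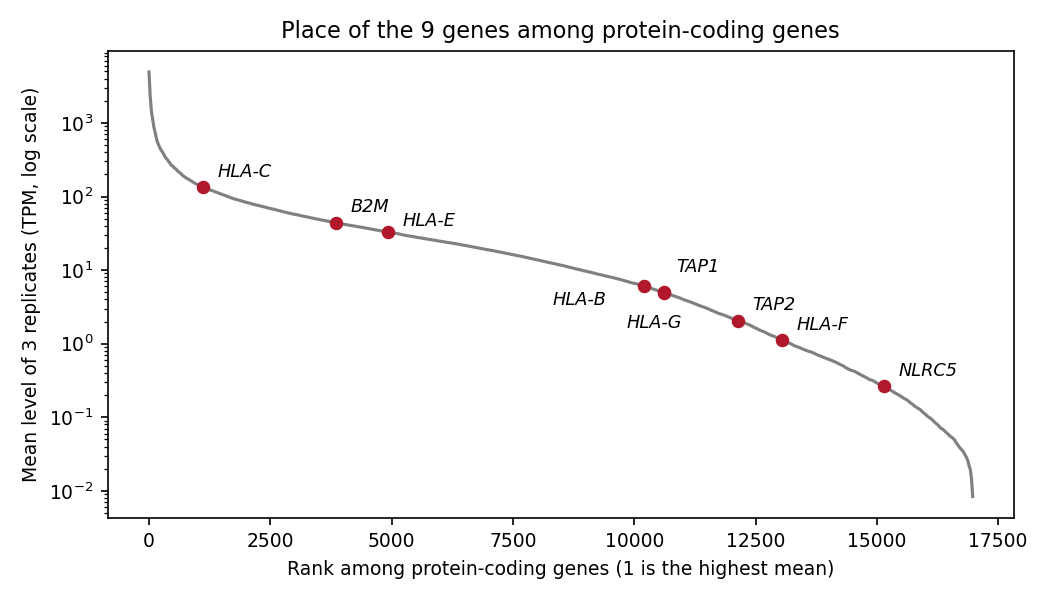
Mean level in TPM on a log axis against rank for all protein-coding genes with a read (grey line), with the 9 genes as red points. The points run from HLA-C, with 1120 genes above it, to NLRC5, with 15139 above it, and TAP1 and HLA-G share nearly the same point.

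Genes with close levels to the members in every replicate were sought for 4 of them by the smallest sum over the 3 replicates of the absolute differences of log2(TPM + 0.01). ATAD1, an ATPase of the mitochondrial outer membrane, was nearest to B2M, with a summed difference of 0.02 log2 units and a mean of 43.7 ± 1.22 TPM. GIPC1 was nearest to HLA-E at 33.4 ± 3.35 TPM, with a summed difference of 0.06. GSC, the homeobox gene goosecoid, was nearest to HLA-B at 6.21 ± 1.10 TPM, with a summed difference of 0.13. CCDC15 was nearest to TAP1 at 5.00 ± 0.183 TPM, with a summed difference of 0.08. The second nearest were ZNF69 for B2M, DIPK1B for HLA-E, ZNF181 for HLA-B and ATOSB for TAP1, and the likeness is one of level over 3 replicates only.

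The spread between replicates was compared with what counting error alone would give. It was lower for TAP1 (2.31% of the mean against 12.7% from counting alone), TAP2 (3.83% against 13.4%), B2M (3.16% against 5.27%) and HLA-F (23.2% against 28.5%). An SD from 3 replicates is itself imprecise. The share of all protein-coding genes with a spread below counting error was not determined, so these values mark nothing particular to the 4 genes. HLA-C varied by 8.34% of its mean where counting alone would give 3.39%, with replicate 3 at 0.20 log2 units above the mean of the others. HLA-G varied by 32.5% against 20.7% and HLA-B by 16.3% against 11.7%, both highest in replicate 2. For comparison, the median spread of all protein-coding genes was 5.03% of the mean in the high class, 8.41% in the medium class and 37.9% in the low class. Counting error takes no account of PCR duplicates, which are not independent molecules.

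Heavy chain genes resemble each other, so reads may be split or lost between them. Of all stretches of 75 bases in the reference transcripts, 1.33% of those of HLA-C, 1.905% of HLA-E, 1.89% of HLA-G, 0.296% of HLA-F and 0.188% of HLA-B also occur in the transcripts of another gene, and none of B2M and NLRC5. At 50 bases the shares were 5.79% for HLA-C and 2.22% for HLA-B. These shares were counted on reference alleles, and how reads of the alleles carried by H9 aligned to them was not tested. Because use of strand in counting is not given in the sources used here, genes that overlap on opposite strands are also uncertain: 14.2% of TAP1 exon bases lie opposite PSMB8-AS1 (16, 27 and 12 reads), 14.5% of those of HLA-B opposite the pseudogene ENSG00000271581 (8, 5 and 10 reads), 12.4% of those of HLA-F opposite HLA-F-AS1 (14, 10 and 10 reads), and 25.8% of those of HLA-G opposite the pseudogene HCG4P8, which had no read. HLA-B shares 30.7% of its exon bases with the pseudogene DHFRP2 on the same strand and TAP2 shares 19.5% with the protein-coding gene ENSG00000250264, neither of which had a read. HLA-C, HLA-E, B2M and NLRC5 overlap no exon of another gene.

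The genes that act with the 9 along the pathway were described from lists by role, with classes as above, and their shares in the high class stand beside 28.8% of all protein-coding genes. Of the 7 genes of the peptide loading complex and its chaperones, 6 were high (85.7%) and 1 low, with a median of 121 TPM. Most of these also fold other glycoproteins. CALR, the chaperone calreticulin, had 1275, 1233 and 1192 TPM, and CANX (calnexin) and PDIA3 (ERp57) had means of 304 ± 17.7 and 121 ± 9.42 TPM. TAPBP (tapasin), which bridges TAP and the heavy chain and is dedicated to class I, was lower, with 33.2, 33.6 and 36.1 TPM, or 6.90 ± 0.365 times the level of TAP1. TAPBPL (TAPBPR), its relative that edits peptides outside the loading complex, was the low gene of the list at 1.45, 1.56 and 2.97 TPM, highest in replicate 3.

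Of 7 genes that trim or cut peptides, 4 were high (57.1%), 2 medium and 1 low, with a median of 28.2 TPM. ERAP1, the aminopeptidase that trims peptides in the endoplasmic reticulum to fit the groove, had 15.9, 14.5 and 12.9 TPM. ERAP2, its partner, had 2, 3 and 4 reads, or 0.111, 0.143 and 0.259 TPM. The level of ERAP1 was thus 144, 101 and 49.9 times that of ERAP2, on few ERAP2 reads. Among the cytosolic peptidases, NRDC stood at 151 ± 0.703 TPM, THOP1 at 37.6 ± 3.24 TPM and TPP2 at 28.2 ± 1.97 TPM.

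**Figure D4:**
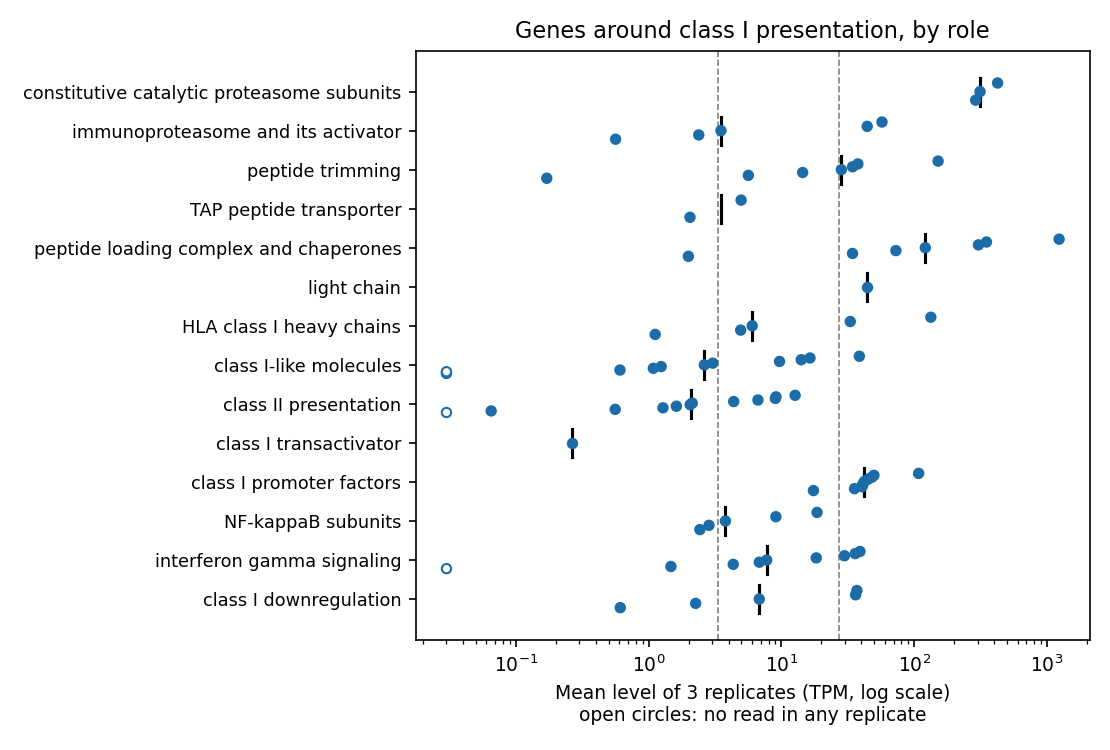
Mean level in TPM on a log axis of each gene of 14 lists around class I presentation, with a point for each gene, an open circle for a gene with no read, a black bar for the median of the list and dashed lines at the class boundaries of 3.35 and 27.0 TPM. The constitutive proteasome subunits (median 313 TPM) and the loading complex (121 TPM) lie to the right, and class II presentation (2.09 TPM) and NLRC5 (0.262 TPM) to the left.

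Transcripts of the constitutive catalytic proteasome subunits far exceeded those of the inducible ones. PSMB5, PSMB6 and PSMB7, the catalytic subunits of the standard proteasome, were all high, with means of 424 ± 18.2, 290 ± 12.6 and 313 ± 25.4 TPM. PSMB8, PSMB9 and PSMB10, which interferon gamma induces and which take their places in the immunoproteasome, had means of 3.50 ± 0.124, 0.563 ± 0.145 and 2.38 ± 1.09 TPM. Together they reached 0.506%, 0.656% and 0.731% of the summed level of the constitutive subunits (0.631% ± 0.114). PSMB5 exceeded PSMB8 by 121 ± 1.06 times and PSMB6 exceeded PSMB9 by 537 ± 129 times. PSMB8 had 32, 38 and 26 reads, for which counting error alone would give a spread of 17.7% of the mean. The SD of the PSMB5 to PSMB8 ratio therefore overstates its precision. PSMB10 had 5, 13 and 12 reads, and PSMB7 exceeded it by 287, 118 and 86.8 times, a mean of 164 that becomes 102 without replicate 1. PSMB9 had 6, 6 and 3 reads. PSME1 and PSME2, the interferon-inducible activator subunits, were both high at 57.1 ± 4.68 and 44.2 ± 3.49 TPM.

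**Figure D5:**
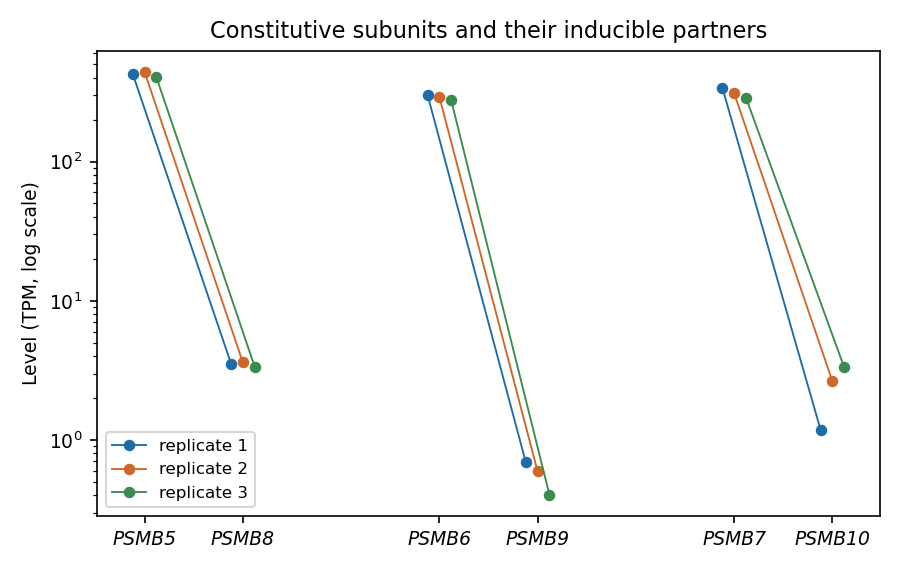
Levels in TPM on a log axis of the 3 constitutive catalytic proteasome subunits and of the inducible subunits that replace them, with a point for each replicate and a line joining the pair within a replicate. PSMB5, PSMB6 and PSMB7 lie at 276 TPM or above in every replicate and PSMB8, PSMB9 and PSMB10 at 3.61 TPM or below.

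Of 8 genes of the RFX, CREB/ATF and NF-Y factors, which hold NLRC5 at class I promoters, 7 were high and 1 medium. Their means ran from 17.4 to 49.7 TPM, with a median of 41.1 TPM. USF1 and USF2, which bind E-boxes and complete the list of promoter factors, were both high, so that 9 of the 10 (90.0%) were. RFX5, RFXANK and RFXAP, the RFX complex, had means of 42.5 ± 2.48, 41.4 ± 3.15 and 17.4 ± 0.707 TPM. NFYA, NFYB and NFYC, which bind the CCAAT letters, stood at 40.8 ± 2.03, 49.7 ± 2.50 and 35.5 ± 1.05 TPM. CREB1 and ATF1, which bind CRE sites, stood at 40.5 ± 1.52 and 45.0 ± 3.33 TPM. The means of all 10 lay above those of HLA-B, TAP1, HLA-G, TAP2, HLA-F and NLRC5. HLA-C, at 133 TPM, lay above all 10, and B2M and HLA-E lay among them.

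The NF-kappaB subunits were lower, 3 medium and 2 low of 5, with a median of 3.78 TPM. RELA was the highest of them at 16.6, 18.4 and 20.6 TPM, and NFKB1 had 3.92, 3.67 and 3.76 TPM. Of 9 genes of interferon gamma signaling, 3 were high (33.3%), 4 medium, 1 low and 1 nonexpressed. The receptor genes IFNGR1 and IFNGR2 were high at 29.8 ± 0.803 and 39.0 ± 1.95 TPM, and the kinase genes JAK1 and JAK2, whose products the receptor uses, were medium at 18.3 ± 2.57 and 4.33 ± 0.595 TPM. IFNG had no read in any replicate. IRF1, the interferon-induced factor that binds the IRF letters, was low at 1.53, 1.48 and 1.40 TPM, while SOCS3, an inhibitor of cytokine signaling, was high at 35.9 ± 1.30 TPM.

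Of 5 genes known to lower class I at the cell surface, 2 were high (40.0%), 1 medium and 2 low. TMEM127 and WWP2, which act with SUSD6 in a complex that sends class I molecules to the lysosome, had means of 37.0 ± 1.37 and 36.2 ± 0.297 TPM, and SUSD6 had 6.80 ± 0.485 TPM. The ubiquitin ligase genes MARCHF9 and MARCHF4 were low at 2.26 ± 0.325 and 0.611 ± 0.132 TPM.

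Of 11 molecules with a class I fold but other tasks, 1 was high (9.09%), 3 medium, 5 low and 2 nonexpressed, with a median of 2.62 TPM. MICB, a stress ligand of the activating receptor NKG2D, was the high gene at 41.2, 40.3 and 34.3 TPM, above HLA-E in replicates 1 and 2 and just below it in replicate 3. FCGRT, the heavy chain of the neonatal Fc receptor, which pairs with B2M, was medium at 16.4 ± 3.51 TPM. HFE, MR1 and CD1D, which also pair with B2M, were low at 1.24 ± 0.210, 0.608 ± 0.0727 and 1.08 ± 0.310 TPM.

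Class II presentation, which is known mainly from professional antigen-presenting cells, had no gene in the high class. Of 12 genes, 5 were medium, 6 low and 1 nonexpressed, and the highest was HLA-DQB1 at 12.7 ± 1.62 TPM. HLA-DRA had 4, 3 and 5 reads (1.24, 0.797 and 1.81 TPM), and CD74, the invariant chain, had 3.65, 4.67 and 4.78 TPM. The summed level of the class II heterodimer genes was 17.9% ± 1.06 of that of the 5 class I heavy chains. CIITA, the class II relative of NLRC5, had 2.08, 2.02 and 2.06 TPM, or 5.58, 12.6 and 8.08 times the NLRC5 level. Of the leukocyte markers, PTPRC had 2, 4 and 1 reads and LYZ, the highest of the list, had 3.34 ± 0.792 TPM.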

How the data were processed

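RNA-seq libraries of 3 replicates of untreated H9 cells were analysed. Per the study's methods and processing notes, reads were trimmed with Trim Galore (0.4.4) and aligned to GRCh38 with TopHat2 (2.1.1), and the authors deposited raw counts of reads per gene. Which tool counted them, on which annotation and with which strand setting is not given in the sources used here. The study's own TPM, from Cufflinks (2.2.1), was not used.

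Of 58051 identifiers, 56948 matched GENCODE 44, and 1103 without a match were left out. TPM (transcripts scaled per length and library) was computed from the counts and the summed length of all annotated exons of a gene and averaged over replicates. Totals of 8655155 to 12024802 counts limit precision at low levels, where counting error was taken as Poisson. Python 3.11.15, numpy 2.4.6, pandas 2.3.3, Biopython 1.88 (global alignment of windows) and matplotlib 3.10.9 were used, with R 4.3.3, edgeR 4.0.16 and DESeq2 1.42.0 for scaling factors only. The steps were tested on simulated data.

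The 9 genes, the lists by role and the rule for named genes (all list genes, and the 2 nearest in level for 4 genes) were chosen with earlier results of these data known. The alternatives were 3 other gene lengths, CPM, TMM and DESeq2 factors, other filters and thresholds, thinning, the median, and leaving out mitochondrial genes or each replicate. The MANE Select lengths and any gene outside the lists were chosen after seeing the data. Results for some related genes are not reported here.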

Additional observations from a re-analysis of the deposited data

How the results depend on the processing

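Leaving out each replicate in turn kept 3 genes in the high class. It moved the ratio of B2M to the heavy chains from 0.247 to between 0.2401 and 0.2603. The ratio of inducible to constitutive proteasome subunits moved from 0.00631 to between 0.00581 and 0.00694. The number of neighbouring pairs that were apart moved from 6 to between 6 and 8. Fewer replicates can only narrow the ranges of a given pair, so this count is no check that the pairs are apart. CPM in place of TPM, which takes no account of length, left 1 gene in the high class and gave ratios of 0.291 and 0.0110. MANE Select lengths gave ratios of 0.516 and 0.00979. Exon bases shared with no other gene gave 0.00858 for the proteasome ratio. Thinning all counts to 10% left 3 of 8 neighbouring pairs apart. The longest transcript as length, MANE Select lengths and a threshold of 1 TPM each left 2 genes in the high class, without HLA-E. TMM and DESeq2 factors moved no gene's mean level by more than its SD, while MANE Select lengths moved 6 of 9 (5 higher and 1 lower). The TMM factors were 0.991, 0.992 and 1.018 in replicates 1, 2 and 3, so they could shift a mean only slightly. The median of 3 values cannot differ from their mean by more than the SD, so it was no check of this. No paired analysis was possible because there was a single group of samples, with no second group to pair it with; genes were compared within replicates.

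Of the 9 genes, read depth limits NLRC5 (25 reads over the 3 replicates) and HLA-F (37) most, and it limits list genes such as ERAP2, PSMB9 and HLA-DRA with 9, 15 and 12 reads. The annotation used for length moves the level of B2M 2.05-fold, of HLA-B 1.86-fold and of HLA-F 1.80-fold with MANE Select lengths, whose exon bases are far fewer: 943 in place of 3121, 1536 in place of 4623 and 1480 in place of 4315. With exon bases shared with no other gene as length, all 9 means were lower, 8 of them by more than their SD (HLA-C 62.5, B2M 20.6 and HLA-E 15.5 TPM), where the median protein-coding gene also fell by 1.09 log2 units. Relative to that median HLA-B stood 0.92 higher, HLA-F 0.47 and HLA-G 0.42, and HLA-C, B2M and HLA-E moved by less than 0.01 log2 units. With MANE Select lengths the median fell by 0.24.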

Other observations

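The stretch of chromosome 6 from HLA-F to TAPBP (29722775 to 33314284) holds 7 of the 9 genes and 146 protein-coding genes with counts. Of these 50 were high (34.25%, against 28.8% of all protein-coding genes), 36 medium, 45 low and 15 nonexpressed. Their median was 6.51 TPM, against 7.10 TPM over all protein-coding genes. HLA-C ranked 13th in level among the 146, HLA-E 46th, HLA-B 75th, TAP1 78th, HLA-G 80th, TAP2 90th and HLA-F 99th. The highest genes of the stretch were no class I genes: TUBB, a beta tubulin, had 2493 ± 102 TPM, the ribosomal protein gene RPS18 had 1535 ± 73.9 TPM, and POU5F1, the pluripotency factor OCT4, had 799 ± 24.9 TPM.

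Of 12 class I pseudogenes with counts, 5 had no read in any replicate. HLA-L had the most, with 86, 108 and 65 reads (32.3 ± 3.18 TPM), a level close to that of HLA-E. Of its 1011 exon bases, 947 belong also to a long noncoding RNA entry of the same name on the same strand in GENCODE 44, which leaves it unclear which transcript the reads came from. HLA-H had 9, 8 and 20 reads, the most in the smallest library.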
